A study of Mus musculus with 3 samples.

Results

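Replication-dependent histone genes encode the linker histone H1 and the core histones H2A, H2B, H3 and H4 that package newly copied DNA. All 58 genes with such a name were taken from the 15287 genes listed for MC3T3-E1 preosteoblasts, by their symbols alone and without regard to their values. They comprised 5 H1, 15 H2A, 14 H2B, 12 H3 and 12 H4 genes, of which 49 lie on chromosome 13, 8 on chromosome 3 and 1 on chromosome 11. Another 10 RefSeq symbols that fit the same naming, such as H2bc18 and H2bu2, were not analysed here.

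MC3T3-E1 is a wild type mouse cell line derived from calvaria, the flat bones of the skull, and is used as a model of cells that can become bone-forming osteoblasts. The CTL cells received no special treatment, the Ti cells were exposed to titanium (Ti) particles at 10 μg/cm² for 24 h, and the Ti+Se-Met cells received the same particles together with 5 μM selenomethionine (Se-Met), a selenium-containing amino acid, for 24 h. The comparisons address how Ti particles alter gene expression in preosteoblasts and what Se-Met adds to that. There was 1 RNA-seq library per condition, so neither a spread between replicates nor a test between conditions could be had, and each ratio compares 2 libraries.

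Most of these genes are switched on as a cell enters S phase, so that histones are made while DNA is copied, and their mRNAs are broken down when replication ends. Their mRNAs lack introns in most cases and end in a short stem-loop in place of a poly(A) tail. The stem-loop is held by the stem-loop binding protein Slbp, which serves the cutting, translation and decay of the mRNA. A few of the genes can also give polyadenylated mRNA, and libraries that select poly(A) RNA largely miss the rest. Whether poly(A) RNA was selected is not given in the sources used here.

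The stem-loop is shown first, since it marks the mRNAs of this family. In the GENCODE M21 transcript models of GRCm38, which are newer than the mm9 build named for these data, 54 of the 58 genes have a single exon. After the stop codon, 42 of the 58 models held a perfect stem-loop of 6-base arms starting with GG around a 4-base loop. The lines below give it for 6 of the more abundant genes, read from the mRNA in DNA letters with 5 bases on each side, with the arms in capitals.
H2ac18: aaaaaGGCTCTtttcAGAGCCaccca
H2aw: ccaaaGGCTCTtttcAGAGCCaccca
H1f2: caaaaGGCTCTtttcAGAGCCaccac
H3c15: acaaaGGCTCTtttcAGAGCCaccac
H3c3: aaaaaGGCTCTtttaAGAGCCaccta
H4c9: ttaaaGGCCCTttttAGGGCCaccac

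The form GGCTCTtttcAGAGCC occurred in 24 of the models, none of them an H4 gene. A second form, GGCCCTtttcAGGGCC, occurred in 6 models, all of H4 genes, and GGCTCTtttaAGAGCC occurred in 5 models of H2B and H3 genes. Of the 16 models in which no stem-loop was found, 9 end at the stop codon and so could not show one. The other 7 were H2bc4, H2bc21, H2bc23, H2bc24, H2ac12, H3c13 and H1f1. Of these, H2ac12 has 2 bases after the stop codon, too few for a stem-loop, and H3c13 and H1f1 have 37 and 48. In 10 models the letters AATAAA, the usual poly(A) signal, stood in the last 40 bases, among them H2aw, H1f2 and H2bc21.

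Short motifs were counted in the promoters. RefSeq windows of 300 bases (250 before and 50 after the start, GRCm38.p6) were found for 53 of the genes, in 54 windows. On either strand, CCAAT stood in 46 of these 54 windows (85.2%), against 37.4% of the 32851 windows of all genes. TATAAA stood in 30 of them (55.6%, against 13.6% of all windows). ATTTGCAT, an octamer known from histone H2B promoters, stood in 11 (20.4%, against 1.74%), 6 of H2A and 5 of H2B genes. The H4 genes stood apart, with CCAAT in 3 of their 11 windows, whereas every window of the other classes held it.

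The windows of 3 H2A genes are printed because they carry the highest H2A levels, and because H2ac18 and H2ac19 share a coding sequence and a run of 219 bases of the 300-base window. Each runs from 250 bases before to 30 bases after the RefSeq start, 5′ to 3′ on the gene's strand, and capitals mark the same 3 motifs on either strand. The H2ac18 window is chr3:96245247-96245526 (plus strand), that of H2ac19 is chr3:96240345-96240624 (minus strand) and that of H2aw is chr11:58954435-58954714 (plus strand).
H2ac18: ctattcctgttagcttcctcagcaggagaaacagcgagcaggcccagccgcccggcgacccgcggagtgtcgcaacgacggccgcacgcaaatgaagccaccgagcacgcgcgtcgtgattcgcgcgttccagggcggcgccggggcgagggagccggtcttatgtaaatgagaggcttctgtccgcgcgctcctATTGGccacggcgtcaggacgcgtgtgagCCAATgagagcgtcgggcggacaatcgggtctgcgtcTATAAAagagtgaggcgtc
H2ac19: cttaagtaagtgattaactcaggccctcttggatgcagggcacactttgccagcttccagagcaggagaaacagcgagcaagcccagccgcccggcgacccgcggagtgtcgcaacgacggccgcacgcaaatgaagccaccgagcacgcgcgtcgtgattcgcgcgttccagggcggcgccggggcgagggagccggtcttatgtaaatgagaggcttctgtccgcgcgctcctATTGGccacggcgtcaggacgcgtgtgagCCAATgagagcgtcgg
H2aw: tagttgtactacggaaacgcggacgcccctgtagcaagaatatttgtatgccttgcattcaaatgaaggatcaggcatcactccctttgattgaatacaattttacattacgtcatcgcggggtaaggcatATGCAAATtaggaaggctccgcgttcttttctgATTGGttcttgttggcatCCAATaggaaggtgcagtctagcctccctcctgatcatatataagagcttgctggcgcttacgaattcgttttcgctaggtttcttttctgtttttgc

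Expression was given as FPKM, the number of fragments scaled to transcript length and sequencing depth, and 3 values in a row stand for CTL, Ti and Ti+Se-Met in this order. Of the 58 genes, 22 reached 1 FPKM in at least 1 library and 36 stayed below 1 FPKM throughout. Genes nearest to this limit were H3c10 at a highest value of 0.96 FPKM just below it and H2ac24 at 1.06 FPKM just above it. The 36 low genes comprised 4 H1, 7 H2A, 10 H2B, 8 H3 and 7 H4 genes, and their values lay between 0 and 0.96 FPKM. They summed to 9.12 FPKM in CTL, 6.15 FPKM in Ti and 11.5 FPKM in Ti+Se-Met.

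The genes were weakly covered. From the steps between low values, about 14350000, 14950000 and 10700000 fragments were estimated to underlie CTL, Ti and Ti+Se-Met, so that 1 fragment in a gene of 500 bases was worth 0.205, 0.197 and 0.275 FPKM. The 58 genes together held an estimated 1103, 1153 and 790 fragments. In each library 8 genes had more than 20 fragments, while 47, 46 and 47 genes had 5 or fewer after rounding to whole fragments, those at 0 included. Listed at 0 were 17, 18 and 12 genes, and 26 of the 58 were above 0 in all 3 libraries. The intervals below are 95% exact conditional binomial intervals on these estimated fragments and cover counting error only. They hold for FPKM as listed and leave out the choice of scaling.

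**Figure D1:**
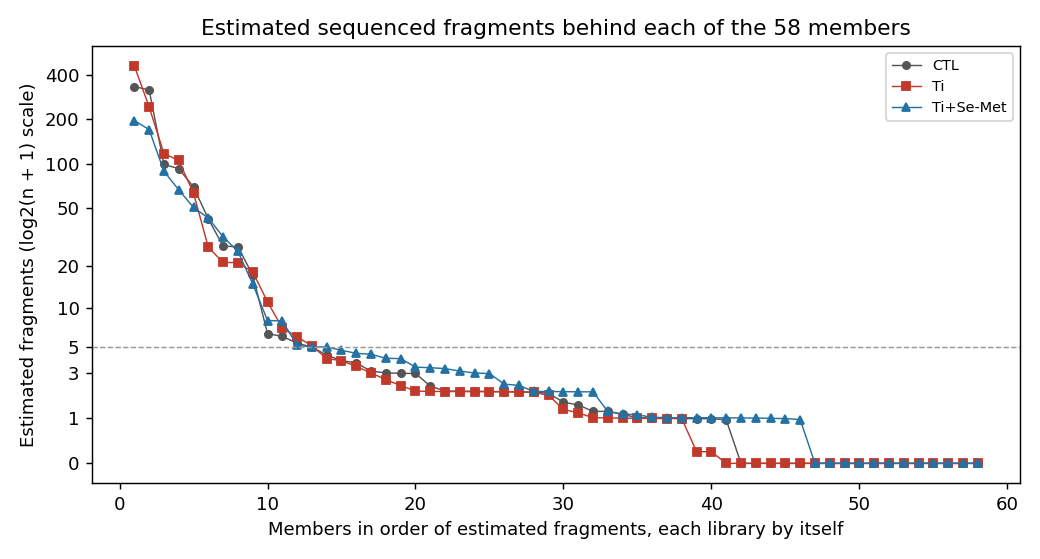
Estimated sequenced fragments (vertical axis, log2(n + 1) scale) behind each of the 58 replication-dependent histone genes, ordered from high to low within each library, 1 line per library. The dashed line marks 5 fragments, and 46 or 47 of the 58 genes lie at or below it in each library once fragments are rounded.

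The library totals of the family lay close together and rested on few genes. Summed FPKM of the 58 genes was 140.89, 158.32 and 147.28. Ti was 1.12 times CTL (interval 1.02 to 1.23), Ti+Se-Met was 1.05 times CTL (0.942 to 1.16) and 0.930 times Ti (0.840 to 1.03). The ratio of Ti to CTL turned to 0.982 without H2ac18 and to 0.958 when each library was rescaled to TPM, which also moved the median log2 ratio of all genes from 0.08 to -0.15. H2ac18 alone made up 41.5%, 48.9% and 31.5% of the sum, and the 4 most abundant genes made up 75.2%, 80.8% and 64.6%. In bulk RNA, a difference in the share of cells in S phase and one in histone mRNA per such cell cannot be told apart. Without H2ac18 the sum of Ti+Se-Met was 1.22 times that of CTL (1.08 to 1.39) and 1.25 times that of Ti (1.10 to 1.42). As a share of the FPKM of all genes in a library, that sum was 0.0184%, 0.0154% and 0.0196%. By share, Ti+Se-Met thus lay closer to CTL.

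**Figure D2:**
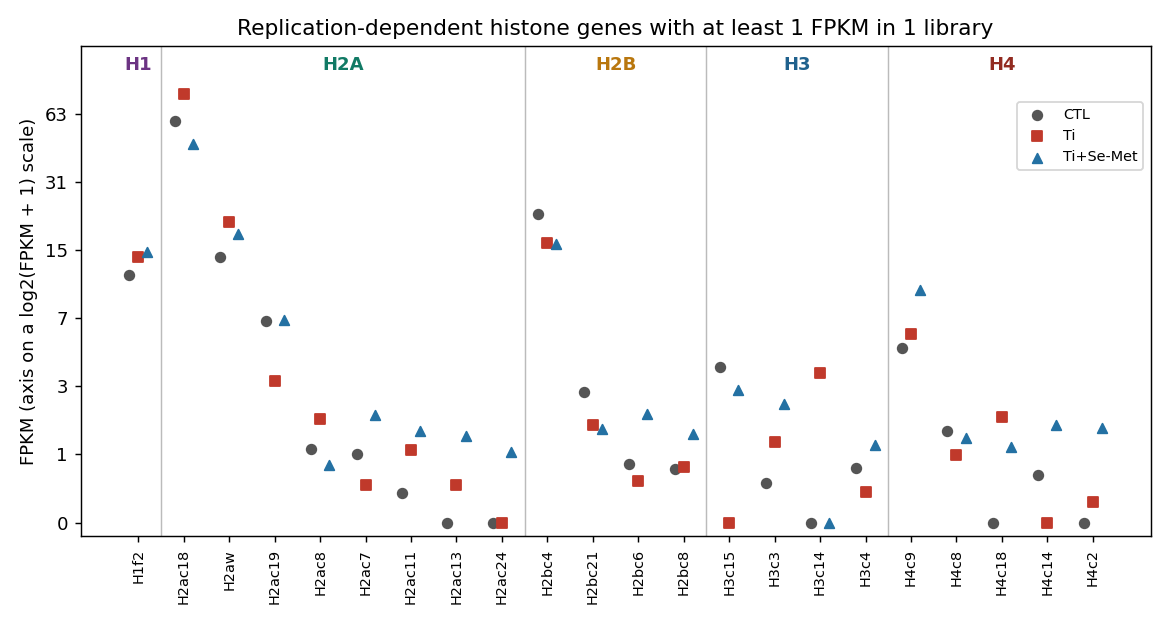
FPKM (vertical axis on a log2(FPKM + 1) scale) of the 22 genes that reached 1 FPKM in at least 1 library, by histone class, 1 point per library. H2ac18 stands highest at 46.34 to 77.38 FPKM, and H3c14 and H3c15 are above 0 in different libraries.

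H1 proteins bind the linker DNA between nucleosomes. H1f2 was the only one of the 5 H1 genes to reach 1 FPKM, at 11.48 FPKM in CTL, 13.93 FPKM in Ti and 14.77 FPKM in Ti+Se-Met. The 2 treated libraries were higher than CTL, but the intervals of both ratios took in 1, at 0.917 to 1.61 for Ti and 0.951 to 1.74 for Ti+Se-Met. The other H1 genes, H1f1, H1f3, H1f4 and H1f5, had at most 0.76 FPKM and about 5 fragments. H1f0, the H1 gene used outside S phase as well, stood at 130.94, 117.64 and 126.92 FPKM, against 12.71, 14.58 and 16.29 FPKM for the 5 members together.

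H2A pairs with H2B in the nucleosome, and the H2A genes held 58.9%, 67.1% and 54.3% of the family's summed FPKM. H2ac18 (older symbol Hist2h2aa1) was listed at 58.46, 77.38 and 46.34 FPKM, from an estimated 332, 458 and 196 fragments. It was thus highest in Ti and lowest in Ti+Se-Met. Ti was 1.32 times CTL (1.15 to 1.53), Ti+Se-Met was 0.793 times CTL (0.660 to 0.947) and 0.599 times Ti (0.503 to 0.708). Rescaled to TPM, these ratios were 1.13, 0.691 and 0.612, so that of Ti to CTL lay nearer to 1. H2ac18 ranked 1356 of the 15287 genes by mean FPKM, and no other member ranked above 4634.

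H2ac19 (Hist2h2aa2), the copy of H2ac18 with the same coding sequence, went the other way, with 6.77 FPKM in CTL, 3.23 FPKM in Ti and 6.83 FPKM in Ti+Se-Met. The copies shared a run of 528 bases in their models, so that reads could be split between them, and single values of either are uncertain. Their sum was 65.23, 80.61 and 53.17 FPKM, with Ti at 1.24 times CTL (1.08 to 1.42) and Ti+Se-Met at 0.660 times Ti (0.561 to 0.774). The sum kept the order of H2ac18. As a share of the FPKM of all genes in a library it was 0.0146%, 0.0153% and 0.0103%, so that Ti lay closer to CTL.

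H2aw (Hist3h2a), which lies apart from the main clusters on chromosome 11, was at 13.98 FPKM in CTL, 20.32 FPKM in Ti and 17.96 FPKM in Ti+Se-Met. Ti was 1.45 times CTL (1.06 to 1.99), or 1.24 times in TPM, and the interval of Ti+Se-Met over CTL took in 1 (0.904 to 1.82). The other H2A genes lay far lower. H2ac8 was at 1.12, 1.86 and 0.80 FPKM, and H2ac7 at 1.00, 0.47 and 1.99 FPKM.

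H2ac11 had 0.35 FPKM in CTL, 1.10 FPKM in Ti and 1.55 FPKM in Ti+Se-Met. H2ac13 was listed at 0 in CTL and at 0.47 and 1.42 FPKM in the treated libraries. H2ac24 was listed at 0 in CTL and Ti and at 1.06 FPKM in Ti+Se-Met. None of these 3 had more than about 5 fragments in any library. The 13 H2A genes other than H2ac18 and H2ac19, led by H2aw, together were at 17.81 FPKM in CTL, 25.65 FPKM in Ti and 26.78 FPKM in Ti+Se-Met. Both treated libraries were thus higher than CTL in FPKM, Ti by 1.44 times (1.09 to 1.90) and Ti+Se-Met with an interval of 1.12 to 2.02. As a share of the FPKM of all genes in a library they were at 0.00397%, 0.00488% and 0.00520%, a smaller difference.

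The H2B sum, most of it H2bc4, was highest in CTL. H2bc4 (Hist1h2bc), whose model has 2 exons and 742 bases after the stop codon without a stem-loop, was at 22.07 FPKM in CTL, 16.28 FPKM in Ti and 16.02 FPKM in Ti+Se-Met. Both treated libraries were lower, at 0.738 times CTL (0.621 to 0.875) for Ti and 0.726 times CTL for Ti+Se-Met (0.601 to 0.880). H2bc21 (Hist2h2be), also without a stem-loop in its model, showed the same order at 2.76, 1.69 and 1.60 FPKM, with Ti at 0.612 times CTL (0.438 to 0.846). H2bc4 and H2bc21 were the more deeply covered H2B genes, with 315 and 99 fragments in CTL.

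H2bc6 (Hist1h2be) had another pattern, with 0.82 FPKM in CTL, 0.52 FPKM in Ti and 2.03 FPKM in Ti+Se-Met. Ti+Se-Met was 2.48 times CTL (1.56 to 4.20) and 3.90 times Ti (2.27 to 7.20), on 27, 18 and 51 fragments. Its model runs on for 1861 bases past the stem-loop, and FPKM does not show where in the model the fragments lie. H2bc8 was at 0.72, 0.76 and 1.45 FPKM on 3 to 5 fragments. The 14 H2B genes summed to 28.39, 20.55 and 23.12 FPKM, which put Ti at 0.724 times CTL (0.616 to 0.850) and Ti+Se-Met at 0.814 times CTL (0.682 to 0.971). Without H2bc4 the sum was 6.32, 4.27 and 7.10 FPKM, so that Ti was 0.676 times CTL (0.435 to 1.04) and Ti+Se-Met turned to 1.12 times CTL (0.740 to 1.69).

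H3 genes of this family encode the H3 proteins laid down behind the replication fork, and all 12 were low. H3c15 (Hist2h3c2) was at 3.88 FPKM in CTL, listed at 0 in Ti and at 2.85 FPKM in Ti+Se-Met. H3c14 (Hist2h3c1) showed the reverse, being listed at 0 in CTL and Ti+Se-Met and at 3.58 FPKM in Ti. The coding sequences of both are the same, and in every library 1 of the 2 was above 0 while the other was listed at 0. Their sum was 3.88, 3.58 and 2.85 FPKM, and the intervals of its 3 ratios all took in 1.

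H3c3 was at 0.50 FPKM in CTL, 1.26 FPKM in Ti and 2.35 FPKM in Ti+Se-Met, from 2, 6 and 8 fragments. H3c4 was at 0.75, 0.36 and 1.21 FPKM. The H3 class summed to 6.85 FPKM in CTL, 7.17 FPKM in Ti and 9.95 FPKM in Ti+Se-Met, where the last was 1.45 times CTL (0.913 to 2.31). By comparison, H3f3a and H3f3b, which encode the H3 variant that is laid down without replication, stood at 597.54, 525.00 and 525.14 FPKM together.

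H4 pairs with H3, and H4c9 (Hist1h4i) was its most abundant gene at 4.94 FPKM in CTL, 5.83 FPKM in Ti and 9.71 FPKM in Ti+Se-Met. Ti+Se-Met was 1.97 times CTL (1.02 to 3.89) on 25 and 17 fragments, or 1.71 times CTL in TPM. H4c8 was at 1.54, 0.98 and 1.37 FPKM, and H4c14 was at 0.63 FPKM, listed at 0 and at 1.69 FPKM. Neither H4c8 nor H4c14 followed the order of H4c9 across the libraries.

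H4c18 was listed at 0 in CTL and was at 1.92 FPKM in Ti and 1.15 FPKM in Ti+Se-Met. Its copy H4c17, with the same coding sequence, was at 0.58 FPKM in CTL and listed at 0 in the treated libraries. H4c2 was listed at 0 in CTL and was at 0.23 FPKM in Ti and 1.62 FPKM in Ti+Se-Met. The 12 H4 genes summed to 9.90, 9.76 and 17.97 FPKM, so Ti+Se-Met was 1.82 times CTL (1.15 to 2.90) and 1.84 times Ti (1.17 to 2.93). That class sum rested on 35, 36 and 47 fragments.

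**Figure D3:**
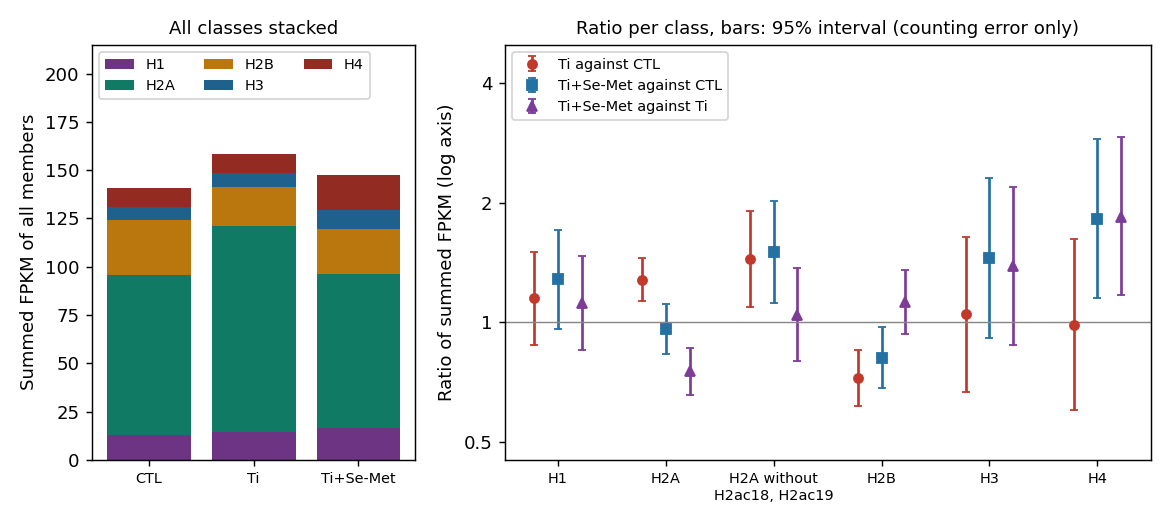
Left, summed FPKM of all 58 genes per library, stacked by class. Right, ratio of summed FPKM per class (log axis) with the 95% interval for counting error, where H2B, led by H2bc4, lies below 1 for both treated libraries against CTL and H4 lies above 1 for Ti+Se-Met.

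Class ratios depended on the scaling near 1. Rescaled to TPM, the Ti to CTL ratio of H1 turned from 1.15 to 0.978 and that of H3 from 1.05 to 0.892, while H2A stayed above 1 at 1.09 and H2B stayed below 1 at 0.617. For Ti+Se-Met against CTL the H4 ratio was 1.58 in TPM and the H2B ratio 0.709, both on the same side of 1 as in FPKM.

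Of the 22 members, 8 reached 1 FPKM in a single library, 7 of them in Ti+Se-Met (H2ac13, H2ac24, H2bc6, H2bc8, H3c4, H4c14 and H4c2) and 1 in Ti (H3c14). For these the filter itself sets a direction, so counts and medians over the 22 are a description and were not read as an excess over the other genes. Gene by gene, few members differed by 2-fold or more on the log2(FPKM + 1) scale, which understates ratios of low genes. For Ti against CTL, H3c14 and H4c18 were higher and H3c15 was lower, that is 2 and 1 of the 22 members. Over all 11137 genes with at least 1 FPKM in 1 library, 3.63% were higher and 3.64% lower by as much. Each of these 3 members was listed at 0 in 1 of the 2 libraries and had a copy with the same coding sequence. With such copies summed, none remained past 2-fold. The median log2 ratio was -0.01 over all 58 genes and 0.12 over the 22 members, beside 0.08 over the 11137 genes.

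For Ti+Se-Met against CTL, H2ac13, H2ac24, H3c3, H4c18 and H4c2 were higher by 2-fold or more and none was lower, that is 5 and 0 of 22, where 2.64% of all genes were higher and 3.32% lower. Of the 5, H2ac13, H2ac24 and H4c2 passed the filter through Ti+Se-Met alone. Of the 5, 4 were listed at 0 in CTL, and none had more than about 8 fragments. With copies summed, 3 were higher. Over all 58 genes, low ones included, the median log2 ratio was 0.07, and it was 0.43 over the 22 members, beside 0.01 over the 11137 genes.

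For Ti+Se-Met against Ti, H2ac7, H2ac24, H3c15, H4c14 and H4c2 were higher and H3c14 was lower, where 0.162% of all genes were higher and 0.0629% lower. Each of H2ac24, H4c14, H4c2 and H3c14 passed the filter only through the library in which it was higher. H3c14 and H3c15 account for 1 in each direction and share a coding sequence. H2ac24, H4c14 and H3c15 were listed at 0 in Ti. With copies summed, 4 were past 2-fold. The median log2 ratio was 0.13 over all 58 genes and 0.52 over the 22 members, beside -0.06 over the 11137 genes.

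**Figure D4:**
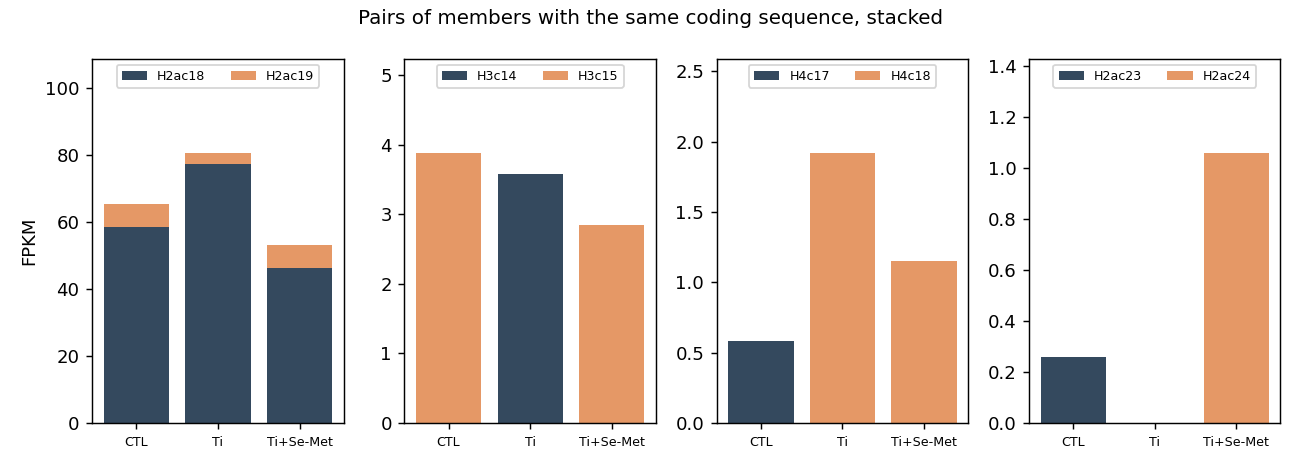
FPKM per library of 4 pairs of genes with the same coding sequence, stacked, each panel with its own axis from 0. In the H3c14 and H3c15 panel the value passes from 1 gene to the other between libraries while the height stays between 2.85 and 3.88 FPKM.

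Most members were nearly identical in coding sequence to another member. In 5 pairs, holding 10 of the 58 genes, the coding sequences were the same: H2ac18 and H2ac19, H3c14 and H3c15, H4c17 and H4c18, H2ac23 and H2ac24, and H2bc23 and H2bc24. Of 51 genes with another coding sequence of equal length to compare, 46 had one that was at least 95% identical. Among the lower ones were H4c14 at 91.0%, H2aw at 89.8% and H2bc21 at 87.9%. No H1 gene had another of equal length to compare. The median identity to the nearest member was 99.2% for H2A, 98.4% for H2B, 98.9% for H3 and 97.1% for H4. How reads that fit several copies were assigned is not given in the sources used here, and the part of this in the differences between single genes was not tested.

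Many H2A and H2B genes stand head to head and share the stretch between their starts. Of 11 such pairs with starts 176 to 660 bases apart, 10 joined an H2A with an H2B gene. In 1 pair both genes reached 1 FPKM, in 6 pairs 1 gene did and in 4 pairs neither did. The widest difference in level was between H2ac6, at 0, 0.62 and 0.35 FPKM, and H2bc4, at 22.07, 16.28 and 16.02 FPKM, whose starts are 251 bases apart. H2ac8 and H2bc8, 176 bases apart, were the pair in which both reached 1 FPKM.

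The features of the mRNA models were set beside the levels. These GENCODE models can be longer than the RefSeq spans from which fragments of single-exon genes were estimated. For H2aw they were 2146 and 508 bases, and for H1f2 1560 and 725 bases. Which form of the mRNA the levels come from was not tested. The 21 genes whose model ends within 60 bases of the stem-loop, led by H2ac18, summed to 71.39, 87.16 and 66.04 FPKM. Without H2ac18 and H2ac19 they summed to 6.16, 6.55 and 12.87 FPKM, highest in Ti+Se-Met, on 28, 29 and 42 fragments. The interval of Ti over CTL then took in 1 (0.604 to 1.87). As a share of the FPKM of all genes in a library, Ti was below CTL, at 0.00125% against 0.00137%. The 21 whose model runs on for more than 60 bases past it, such as H2aw and H1f2, summed to 41.36, 50.55 and 58.73 FPKM, so that Ti+Se-Met was 1.42 times CTL (1.18 to 1.71). With H2ac18 and H2ac19 included, Ti was 1.22 times CTL in both of these groups. The 7 with bases after the stop codon but no stem-loop, led by H2bc4, summed to 25.88, 18.48 and 18.64 FPKM, with Ti at 0.714 times CTL (0.609 to 0.837) and Ti+Se-Met at 0.720 times CTL (0.602 to 0.860). The 9 models that end at the stop codon summed to 2.26, 2.13 and 3.87 FPKM. The groups with a stem-loop were highest in Ti+Se-Met once H2ac18 and H2ac19 were left out, and the group led by H2bc4 was the one highest in CTL.

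The histone variant genes outside the family, most of which are not bound to replication, were far more abundant per length as a group. Members made up 12.3%, 12.1% and 11.6% of the summed FPKM of both kinds. Of 11 variant genes, 10 reached 1 FPKM. For Ti against CTL, 2 of them were 2-fold or more higher and none lower, and the median log2 ratio was 0.39. Over the 11137 genes, 3.63% were higher and 3.64% lower by as much, and the median was 0.08. The 2 variant genes were H2az1, encoding the variant H2A.Z, at 154.63, 320.62 and 268.84 FPKM, and H2aj at 30.35, 64.49 and 49.46 FPKM. Neither stayed past 2-fold in TPM. For Ti+Se-Met against CTL only Cenpa, the centromere variant of H3, was past 2-fold, at 15.19 FPKM in CTL, 24.38 FPKM in Ti and 38.57 FPKM in Ti+Se-Met. Over the 11137 genes, 2.64% were higher by as much in that comparison.

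Genes of DNA replication, which act in the same phase of the cell cycle, stood higher in both treated libraries. All 32 on the list were higher in Ti than in CTL, 11 of them by 2-fold or more, and the median log2 ratio was 0.80. Over the 11137 genes, 3.63% were higher by as much and the median was 0.08. With Se-Met added, all 32 were higher than in CTL as well, 15 of them by 2-fold or more, with a median of 0.94. Over the 11137 genes these values were 2.64% and 0.01. None of the 32 passed 2-fold between Ti+Se-Met and Ti. In TPM, 30 of 32 were higher in Ti than in CTL and 31 of 32 in Ti+Se-Met than in CTL. Cdt1, which helps load the MCM helicase, was at 3.16, 19.48 and 19.09 FPKM. Mcm7, a helicase subunit, was at 17.71, 51.05 and 49.02 FPKM, and Pcna, the sliding clamp, was at 83.73, 144.00 and 150.63 FPKM. The summed FPKM of this list was 416.76, 756.82 and 803.53, whereas that of the replication-dependent histone genes was 140.89, 158.32 and 147.28.

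Of the chaperones that carry new histones to DNA, a few stood higher in both treated libraries. Of 26 on the list, 4 were 2-fold or more higher in Ti than in CTL and 1 was lower, and the median log2 ratio was 0.24. Over the 11137 genes, 3.63% were higher and 3.64% lower by as much, and the median was 0.08. Chaf1b, a subunit of chromatin assembly factor CAF-1, was at 4.03, 14.57 and 12.51 FPKM, and its partner Chaf1a was at 8.57, 21.41 and 20.68 FPKM. Asf1b, which hands H3 and H4 to CAF-1, was at 2.36, 7.19 and 6.63 FPKM. The fourth, Mcm2, also stands on the replication list. Atrx, a remodeller that works with the H3f3a and H3f3b protein, was the lower one at 23.12, 10.51 and 12.22 FPKM. In TPM, Ti exceeded CTL for 14 genes of the same list and was below it for 12, against 20 and 6 in FPKM.

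Genes for the transcription and 3′ end formation of histone mRNA differed less between the libraries than the replication list. On the log2(FPKM + 1) scale, none of the 24 that reached 1 FPKM was past 2-fold in any of the 3 comparisons. In TPM, 1 of them was 2-fold or more lower in Ti than in CTL. Slbp was at 36.05, 45.81 and 42.59 FPKM. Npat, the coactivator of histone genes in S phase, was at 6.57, 6.49 and 5.30 FPKM. Lsm11, a part of the U7 particle that directs the cut, was low at 1.09, 2.61 and 2 FPKM. It had the widest ratio of the list on the log2 scale for Ti against CTL at 0.79. Its plain FPKM ratio for Ti against CTL was 2.39 (1.90 to 3.08). Between Ti and CTL the median log2 ratio was 0.28. It was -0.19 for Ti+Se-Met against Ti, where 21 of the 24 were lower. For Ti+Se-Met against CTL 16 were higher and 8 lower in FPKM, but 10 higher and 14 lower in TPM.

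**Figure D5:**
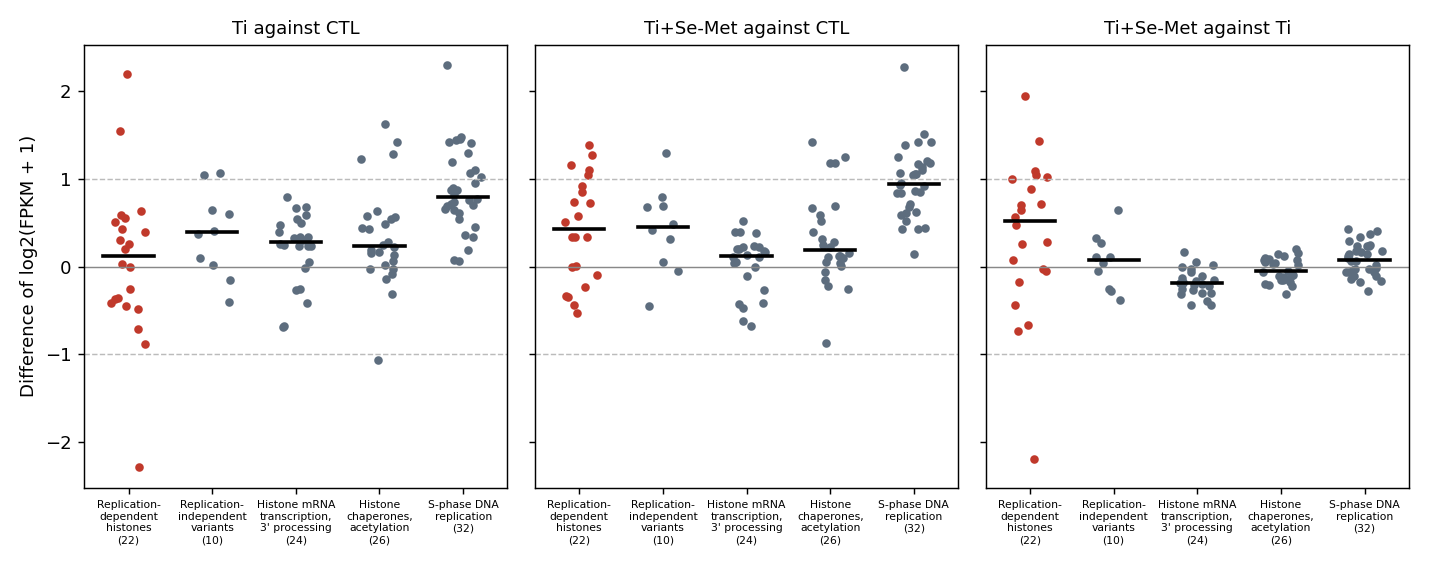
Difference of log2(FPKM + 1) (vertical axis) per gene for the 3 comparisons, for the 22 replication-dependent histone genes (red) and the 4 other gene lists (grey), with the number of genes in brackets and black bars at medians. Dashed lines mark 2-fold. All 32 replication genes lie above 0 in both comparisons with CTL, whereas the histone genes lie on both sides of 0 in each comparison.

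Short or poly(A)-free RNAs listed as a possible sign of how the RNA was selected, such as Rmrp and Rn7sk, were looked for, and values of the 12 on that list were not analysed here. As to the cells, 7 of 10 preosteoblast markers reached 1 FPKM, with Col1a2 at 2688.49, 998.91 and 1256.60 FPKM, while Sp7, Bglap and Ibsp stayed below 1 FPKM in every library. The markers' summed FPKM was 7656.48 in CTL and 2288.87 to 2758.36 in the treated libraries. For macrophages, 2 of 7 markers reached 1 FPKM and the list summed to between 27.75 and 32.50 FPKM. Cd14 was higher in the treated libraries (5.70, 16.56 and 14.81 FPKM) and Lyz2 was lower (26.72, 14.76 and 12.42 FPKM). Csf1r was at most 0.10 FPKM. For osteoclasts, 1 of 6 did, Ctsk at 17.78, 29.68 and 26.22 FPKM, and Acp5 was at most 0.06 FPKM. Of 5 myoblast markers only Des reached 1 FPKM, in CTL alone, and none of 5 adipocyte or 4 endothelial markers did. Values were analysed for only 4 of the 7 macrophage and 4 of the 6 osteoclast markers. The same holds for 2 of the 5 myoblast, 4 of the 5 adipocyte and 2 of the 4 endothelial markers. The part of these markers in the histone values was not tested.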

How the data were processed

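Total RNA was extracted from MC3T3-E1 cells, and libraries made from it were sequenced, 1 library for each of CTL, Ti and Ti+Se-Met. The authors deposited 1 table of FPKM values per gene, rounded to 2 decimals. The submitters' processing notes name HISAT2, StringTie, SAMtools and the mm9 build, and the study's methods name gene counts by HTSeq. The software that made the FPKM, its annotation, the handling of reads that fit several genes and the library's RNA selection are not given in the sources used here. Gene symbols in the table are newer than mm9, so no gene coordinates are given beside those of the printed RefSeq windows.

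Values were compared as log2(FPKM + 1) with a pseudocount of 1, over the 11137 genes with at least 1 FPKM in at least 1 library, and called at 2-fold. Folds without that scale are plain FPKM ratios. With 1 library per condition no test between conditions was made. The deposited file holds no depth, so fragments per library were estimated from the steps between low FPKM values of 415 short genes outside the family, with 160 bases taken off each length. Tested on simulated data, the estimate erred by at most 0.385%. The simulation used the same gene lengths and the same formula as the estimate, so it does not cover errors in the lengths or the annotation. A simulated 4-fold difference between Ti and CTL was recovered in 100% of 200 genes among 10849. Those 200 were drawn from genes with at least 5 FPKM in CTL, so recovery at the low level of most members was not tested. Within a tolerance of 0.1 fragments, 20 of 30, 20 of 28 and 23 of 36 low member values of CTL, Ti and Ti+Se-Met fell on whole fragments, so single counts are approximate.

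Earlier results of these data were known when the naming rule for the members and the gene lists were set, though the rule itself uses no values. Values are given for every member that reached 1 FPKM. For the other lists, the genes with the largest log2 ratio of Ti to CTL and some named by role are given. Stem-loops and coding sequences were read from GENCODE M21 models of GRCm38, and promoters from RefSeq. Alternatives were other pseudocounts, filters, thresholds and scalings, leaving out the most abundant member, and summing identical copies. Sums without H2bc4, or without H2ac18 and H2ac19, were added after the values were seen. Python 3.11.15, numpy 2.4.6, pandas 2.3.3, scipy 1.17.1 and matplotlib 3.10.9 were used.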

Additional observations from a re-analysis of the deposited data

How the results depend on the processing

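Of 42 alternative values, 18 stayed within 1.5 times a main count or within the counting interval of a main ratio, and the other 24 did not. The numbers of histone genes past 2-fold, 3 between Ti and CTL, 5 between Ti+Se-Met and CTL and 6 between Ti+Se-Met and Ti, became 9, 8 and 11 with a pseudocount of 0.1, 0, 0 and 0 with a pseudocount of 5, 0, 0 and 0 among genes with a mean of at least 5 FPKM, 7, 9 and 13 at a 1.5-fold threshold, and 10, 12 and 12 in TPM. With copies of the same coding sequence summed, an alternative chosen after seeing the data, they were 0, 3 and 4. Members that passed the filter were 22 in the main analysis, 6 at a mean of at least 5 FPKM, 37 in TPM and 20 with copies summed. Shares over all genes are not given for these alternatives, so the counts are a description. Median-of-ratios and upper-quartile scaling changed the numbers past 2-fold by less than 1.5 times. The ratio of summed FPKM of Ti to CTL, 1.12, reversed to 0.958 in TPM and to 0.982 without H2ac18, and was 1.02 after upper-quartile scaling. That of Ti+Se-Met to CTL, 1.05 with an interval that takes in 1, became 0.911 in TPM, 0.948 among genes with a mean of at least 5 FPKM, 0.998 after upper-quartile scaling and 1.22 without H2ac18. That of Ti+Se-Met to Ti, 0.930, became 0.815 among genes with a mean of at least 5 FPKM and crossed 1 to 1.25 without H2ac18. No paired analysis was possible because there was a single library per condition, and no library could be left out for the same reason. Depth limited the low genes most, since 46 or 47 of the 58 had 5 or fewer estimated fragments in each library.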

Other observations

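A few histone genes outside the naming of the family were listed at low levels. H3f3c was at 1.25 FPKM in CTL, 0.74 FPKM in Ti and 0.42 FPKM in Ti+Se-Met. H3f4 was listed at 0 in CTL and Ti and was at 0.47 FPKM in Ti+Se-Met. H1f9, an H1 gene of spermatids, was likewise listed at 0 in CTL and Ti and was at 0.13 FPKM in Ti+Se-Met.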
